A study of Sus scrofa with 8 samples.

Results

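Müller glia nuclei were picked out of single-nucleus RNA sequencing data from 8 minipig retinas by the RNA they carried. A nucleus had to hold at least 1000 unique molecular identifiers (UMIs, each standing for 1 captured RNA molecule), at least 1 UMI of SLC1A3, and at least 4 UMIs summed over SLC1A3, RLBP1, KCNJ10, SOX9 and DKK3. It could hold no UMI of PAX2, an astrocyte factor, and no more than 2 UMIs summed over genes of rods (PDE6A, PDE6B), ON bipolar cells (TRPM1, GRM6), inhibitory neurons (GAD1, GAD2) and leukocytes (PTPRC). Of 388491 deposited barcodes, 27215 met this definition. The members were thus chosen by the measured UMI counts of these genes, and their levels are given below as a description, with none tested.

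Müller glia are the radial glia of the retina and span it from the inner to the outer limiting membrane. They clear glutamate and GABA from the synaptic layers, buffer potassium and water, regulate pH, feed lactate to neurons, recycle the chromophore of cones and secrete neurotrophic factors. Their endfeet line the vitreous, which makes them one of the first cells an intravitreally injected AAV meets. Like most cells, they answer interferon through the receptors IFNAR1 and IFNAR2 and transcription factors that include STAT2 and IRF9, which switch on antiviral genes and the machinery that presents peptides on MHC class I. In injury they can enter gliosis, a state marked by GFAP, vimentin and other proteins.

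The animals were female Yucatan minipigs, aged 3 to 5 months. Both eyes were injected into the vitreous with AAV2.7m8/CAG-GFP, an AAV2 capsid variant that carries a GFP gene under the ubiquitous CAG promoter, at 5e11 vector genomes per eye, or with vehicle. At week 2 each group held the 2 eyes of 1 animal, and at week 4 the left eyes of 2 animals each. In every group, controls included, the eyes had first been given Vitrase, a hyaluronidase, and the animals received methylprednisolone, a glucocorticoid, each week from just before dosing. Frozen retinas were dissected, and nuclei were sorted on DAPI and loaded on 4 lanes per retina. The batch label of a sample names its group, which means that a batch effect cannot be told apart from treatment, and the day of collection within week 4 may have differed between animals. At week 2 the 2 eyes of a group came from the same animal, so no test was made there.

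The 8 retinas held 40389 to 55012 barcodes and 121544835 to 173614051 UMIs. The largest number of barcodes that any 2 lanes of different retinas had in common was 62, between retinas whose lanes held at least 11822 each. Lymphocyte nuclei numbered 394 and 414 in the AAV-injected retinas at week 4 and 0 to 8 in the other 6. They were chosen by PTPRC and lymphocyte genes, with no UMI of SLC1A3, RLBP1, PDE6A or PDE6B. Rod nuclei were chosen by PDE6A and PDE6B, with no UMI of SLC1A3 or RLBP1. Astrocyte nuclei had a UMI of PAX2, none of RLBP1 and a minimum sum over PAX2, GFAP, AQP4 and SLC1A3. Relative to the other nuclei, genes that the definition did not use were higher in the Müller nuclei, among them TF (19.8 times), COL9A1 (20.0 times), AQP4 (15.8 times) and ABCA8 (13.7 times), whereas WIF1, another reported Müller gene, was at 0.530 times. Astrocyte nuclei shared some of them, with 446 CPM (a gene's UMIs scaled to a fixed total) of ABCA8 against 292 CPM in Müller nuclei. COL9A1 stood at 1064 against 1438 CPM. TF (12.2 against 986 CPM) was not shared, nor was AQP4 (8.52 against 43.3 CPM), which had helped to choose the astrocytes. VIM (335 against 95.7 CPM), CLU (530 against 384 CPM), HES1, LHX2, CRYAB and WIF1 were higher in astrocytes. CA2 (29.6 against 280 CPM), SPP1, GPR37 and PRSS56 were lower there. Of the defining genes, SOX9 (52.0 against 8.85 CPM) and KCNJ10 (64.9 against 48.6 CPM) were higher in astrocytes and DKK3 (365 against 833 CPM) was lower. Of the genes of vessels, FLT1 and PDGFRB were also 18.7 and 17.0 times higher than in the other nuclei, while PECAM1 and VWF were at 1.33 and 1.14 times and CDH5, RGS5 and CLDN5 at 0.420, 0.162 and 0.127 times. Of the pigment epithelium genes RPE65 was 3.82 times higher, and PMEL, TTR and BEST1 were at 0.849, 0.814 and 0.243 times. GLUL, the usual Müller marker, was not analysed here.

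Upstream of the genes that rose most in these nuclei, the sequence most often associated with interferon is the interferon-stimulated response element (ISRE), searched here on both strands as GAAANNGAAA. The 200 bases before the annotated start of each gene were read from RefSeq's annotation of Sscrofa11.1, the build of the deposited counts. Of 12444 tested genes with a symbol, 11430 had such a window, and 208 (1.82%) held the element. It was found in 16 of 47 interferon-stimulated genes (34.0%), 3 of 15 genes of MHC class I presentation (20.0%), 0 of 24 p53 targets and 1 of 17 genes of glutamate, potassium, water and pH handling. Of the genes that were higher at week 4, 3.70% held it, and of those that were lower, 0.733%. Windows of 3 interferon-stimulated genes and of 1 proteasome gene are printed because they hold the element and their genes were called higher at week 4, each 5′ to 3′ on the strand of its gene, with the element or its reverse complement in capitals. RSAD2 encodes viperin, which blocks viral replication (chr3:128897810-128898009, minus strand). ZBP1 senses Z-form nucleic acid (chr17:57986118-57986317, minus strand). BST2, or tetherin, holds budding virions at the membrane (chr2:60305106-60305305, plus strand). PSMB9 is a subunit of the immunoproteasome (chr7:25071933-25072132, plus strand) and held 2 overlapping copies.
RSAD2: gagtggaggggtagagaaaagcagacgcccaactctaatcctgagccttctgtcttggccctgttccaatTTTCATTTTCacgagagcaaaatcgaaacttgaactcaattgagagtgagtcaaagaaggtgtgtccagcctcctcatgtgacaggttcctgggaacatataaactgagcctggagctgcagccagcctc
ZBP1: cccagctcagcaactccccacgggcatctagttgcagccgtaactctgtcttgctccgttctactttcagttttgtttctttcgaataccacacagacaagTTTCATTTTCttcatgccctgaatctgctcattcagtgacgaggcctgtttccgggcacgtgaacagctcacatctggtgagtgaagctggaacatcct
BST2: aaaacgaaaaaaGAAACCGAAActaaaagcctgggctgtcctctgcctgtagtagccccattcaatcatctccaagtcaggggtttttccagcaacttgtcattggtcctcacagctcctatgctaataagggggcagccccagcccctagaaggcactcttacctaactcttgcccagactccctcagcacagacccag
PSMB9: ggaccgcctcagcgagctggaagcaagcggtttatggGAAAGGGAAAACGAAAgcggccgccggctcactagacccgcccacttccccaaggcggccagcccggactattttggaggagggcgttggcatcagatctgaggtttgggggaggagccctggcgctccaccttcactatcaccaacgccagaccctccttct
The element lay 130 bases before the start in RSAD2, 99 in ZBP1, 188 in BST2 and 157 and 163 in PSMB9. A match shows only that these letters stand there. The motifs GGGANNNNCC (kappaB) and TTCNNNGAA (GAS), searched in the same way, occurred in 22.7% and 4.36% of all windows, and among the NF-kB genes kappaB occurred in 9 of 20 (45.0%).

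In number, Müller nuclei were a smaller part of the AAV-injected retinas at week 4. They were 1999 of 49721 barcodes with at least 1000 UMIs in the first (4.02%) and 754 of 48568 in the second (1.55%). In the vehicle-injected retinas they were 3637 of 45005 (8.08%) and 3735 of 42171 (8.86%). The groups did not overlap, and the difference of the means, 2.79% ± 1.75 against 8.47% ± 0.548 (SD, n = 2 animals each), was -5.68 percentage points. It is given as a description with no test, since the share counts nuclei by the genes of the definition. At week 2 the shares were 8.99% and 11.5% in the eyes of the AAV-injected animal and 9.72% and 8.15% in those of the vehicle-injected animal, and these overlapped. Because all nuclei of a retina share 1 total, a share can fall with more nuclei of other types as well as with fewer Müller nuclei, which cannot be told apart here. It can also fall where nuclei hold fewer UMIs of the defining genes, and RLBP1, DKK3 and KCNJ10 were lower in these retinas, as given below. The part of that in the share was not tested.

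The nuclei that were found differed in depth too. A Müller nucleus of the AAV-injected retinas at week 4 held a median of 5200 and 5388.5 UMIs, against 2376 and 2194 in the vehicle-injected retinas, whereas at week 2 the medians were 2695 and 3702 against 2661 and 2910. Over all barcodes of the week 4 retinas the medians were 2342 and 2613 under AAV and 2029 and 1994 under vehicle. The definition counts UMIs without thinning, so where its genes are lower a nucleus must be deeper to meet it. The part of that in the depth of Müller nuclei was not tested. Mitochondrial RNA made up a median of 0.0163% and 0.0127% of the UMIs of Müller nuclei at week 4 under AAV and 0.0627% and 0.0596% under vehicle. The definition set no limit on it, and the highest share in a nucleus was 33.7% and 0.662% under AAV and 52.1% and 51.3% under vehicle. A limit of 0.5% would keep 1969 and 750 nuclei under AAV and 3370 and 3441 under vehicle. RNA of genes of other cells also differed. The summed level of 10 rod genes in the Müller nuclei was 391 and 338 CPM under AAV and 1067 and 1147 CPM under vehicle at week 4, and all 10 were lower with a median log2 fold change of -1.36. The cone genes summed to 80.3 and 91.7 CPM against 183 and 212 CPM, with 4 of 5 lower and a median of -1.25, and of the amacrine genes 2 of 5 were lower with a median of -0.81. Depth and RNA of other cells were taken up by 3 alternatives to the test of all genes given below. Drawing 1000 UMIs from every nucleus called 1346 genes higher and 1230 lower, applying the definition after such a draw 1893 and 1705, and allowing no UMI of the genes of other cells in the definition 1900 and 1914. Beyond these, their part in the differences that follow was not tested.

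**Figure D1:**
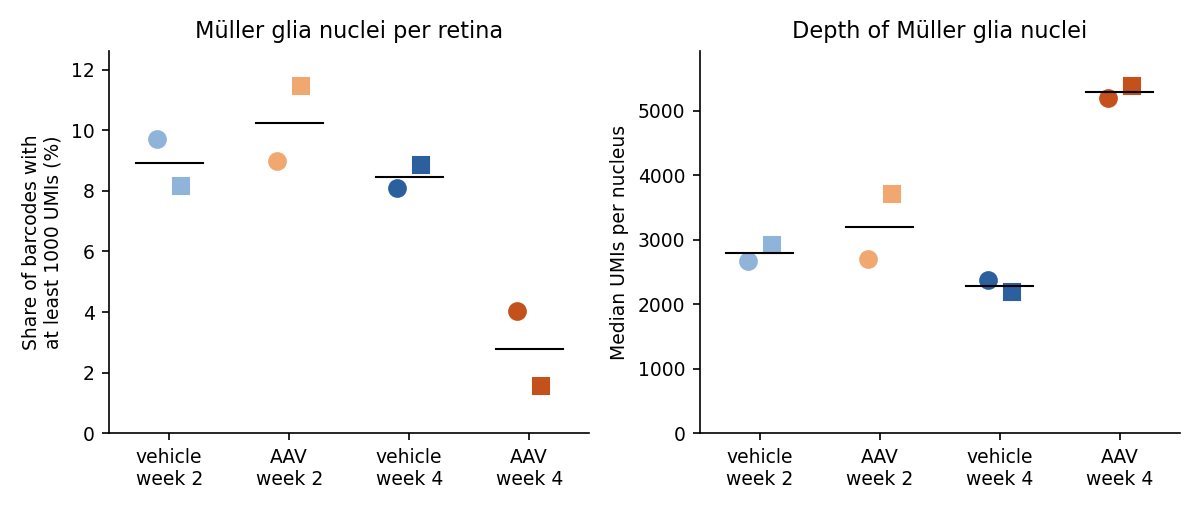
Left, the share of barcodes with at least 1000 UMIs that met the definition of Müller nuclei, in percent, for each retina; right, the median UMIs per Müller nucleus. The circle is retina 1 and the square retina 2 of a group, and the line is their mean; at week 4 both AAV-injected retinas (4.02% and 1.55%) lie below both vehicle-injected retinas (8.08% and 8.86%) in share and above them in depth.

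The genes that chose the nuclei are described here in the AAV-injected retinas of week 4, beside vehicle and week 2. RLBP1, which carries the visual-cycle chromophore, stood at 326 and 346 CPM there, against 1034 and 979 CPM under vehicle, and at week 2 at 597 and 541 CPM under AAV against 907 and 774 CPM under vehicle, so the groups did not overlap at either week. DKK3, a secreted Wnt modulator, stood at 405 and 351 CPM against 963 and 922 CPM, and KCNJ10, the potassium channel Kir4.1, at 16.3 and 10.2 CPM against 56.5 and 59.3 CPM. SLC1A3, the glutamate transporter GLAST, stood at 1364 and 1284 CPM against 1202 and 1303 CPM, so its groups overlapped. SOX9 was higher, at 18.4 and 16.2 CPM against 5.71 and 7.82 CPM. At week 2 KCNJ10 stood at 49.4 and 50.8 CPM under AAV against 61.9 and 55.5 CPM under vehicle and SOX9 at 7.93 and 8.22 CPM against 5.98 and 6.46 CPM, both without overlap, whereas the eyes overlapped for DKK3 and SLC1A3. At 1000 drawn UMIs, 26.4% and 26.7% of the Müller nuclei under AAV held RLBP1 at week 4, against 64.2% and 62.2% under vehicle.

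The definition asked for 4 marker UMIs, and nuclei near that limit were present in every retina. The week 4 AAV-injected retinas had 153 and 82 nuclei at exactly 4 and 192 and 93 that met all else with 3, and the vehicle-injected retinas had 429 and 552 at 4 and 341 and 502 at 3. Some nuclei of the definition reached 4 on SLC1A3 alone. They made up 8.35% and 11.7% of the Müller nuclei under AAV at week 4, against 0.880% and 1.23% under vehicle, and 1.102% to 2.56% in the 4 retinas of week 2. UMIs of leukocyte genes went with them. Over 19 leukocyte genes, 7.30% and 13.3% of the Müller nuclei held at least 3 UMIs under AAV at week 4, against 0.467% and 0.455% under vehicle, and the nuclei with SLC1A3 alone held 29.3% and 49.8% of these UMIs. These UMIs were counted without thinning in nuclei that were deeper under AAV, and the part of depth was not tested. The 9 microglia and macrophage genes summed to 91.7 and 169 CPM against 32.2 and 30.9 CPM, and the 9 lymphocyte genes to 82.7 and 114 CPM against 52.8 and 40.0 CPM. Over all 8 retinas P2RY12 and JCHAIN were the most abundant of each set in Müller nuclei, at 29.1 and 44.7 CPM. Both were higher there than in the other nuclei (2.04 and 1.75 times). CD163 and CD247 came next, at 6.56 and 4.10 CPM (0.461 and 0.669 times). A UMI of these genes is thus no sure sign of leukocyte RNA. CD163, a macrophage scavenger receptor, stood at 0 in both vehicle-injected retinas and at 29.97 and 62.9 CPM under AAV, at least 252-fold higher, counted against a floor of 3 UMIs over the group, and IGHM and CD2 of lymphocytes were likewise at 0 in both vehicle-injected retinas. The defining B-cell gene MS4A1 and T-cell gene CD3D had at most 5 UMIs in any retina, and microglial TREM2 at most 4. The tests across genes at week 4 and the shares of nuclei with interferon-stimulated UMIs were therefore also computed in a stricter choice, made after the data were seen, of nuclei with at least 1 RLBP1 UMI and none of the 19 leukocyte genes. It kept 791 and 261 nuclei under AAV and 2609 and 2777 under vehicle. The shares of nuclei with CDKN1A or EGFP were not computed there.

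At week 4 a large part of the genome differed between AAV-injected and vehicle-injected retinas. In counts summed per retina over the Müller nuclei, edgeR's quasi-likelihood test with Benjamini-Hochberg adjustment called 2110 genes higher (11.9% of 17665 tested) and 2026 lower (11.5%) under AAV at an adjusted p under 0.05, and 1245 and 1051 of them changed by over 2-fold. The median log2 fold change over all tested genes was -0.01. For 65.2% of the tested genes the 2 groups did not overlap in CPM (35.3% higher and 29.9% lower under AAV), so a lack of overlap alone says little. DESeq2 called 1452 and 1347. Leaving out any 1 retina gave 1297 to 1370 higher and 1124 to 1409 lower. The fit over 6 animals, with week as a term, called 752 higher and 391 lower. It estimates 1 AAV effect shared by both weeks, so a change seen at week 4 alone is averaged with week 2. At week 2, 1471 genes (7.04% of 20904 with at least 20 UMIs) were over 2-fold higher with both eyes of the AAV-injected animal above both eyes of the vehicle-injected animal, and 680 (3.25%) were lower by the same measure, 10.3% in all, which is no test. Between 1 animal and another such a difference can also be that of the animals.

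Interferon-stimulated genes had the highest median of the lists that were examined. All 53 tested at week 4 rose, beside 11.9% of all genes tested, with a median log2 fold change of 4.64. At week 2 each of the 53 with enough UMIs except IDO1 was over 2-fold higher, with a median of 5.35. The list was chosen with earlier results of these data known. Members with next to no UMI under vehicle, such as ISG20 (378 UMIs against 0), passed the filter on low counts only through the AAV-injected retinas. For these a rise was the only call possible, so the count and median lean towards a rise. MX2, a GTPase that traps viral capsids, stood at 0 and 0.522 CPM in the vehicle-injected and 578 and 881 CPM in the AAV-injected retinas at week 4 (log2 fold change 11.34 ± 0.57 SE, adjusted p = 0.000378). At week 2 it stood at 0.336 and 0.239 CPM under vehicle and at 577 and 989 CPM under AAV. The retinas under AAV overlapped between the weeks, and MX2 was close to absent from the 4 vehicle-injected retinas. DDX60, a helicase that aids RNA sensing, went from 0.204 and 0.313 CPM under vehicle to 266 and 303 CPM under AAV at week 4 (log2 fold change 9.98 ± 0.23 SE, adjusted p = 2.71e-06) and stood at 399 and 666 CPM under AAV at week 2. The sensors of viral nucleic acid rose with them, RIGI by 5.56 (adjusted p = 0.00178) on the log2 scale, IFIH1 (MDA5) by 4.06 (adjusted p = 0.000529), CGAS by 6.35 (adjusted p = 2.38e-05) and the effector kinase EIF2AK2 (PKR) by 3.27 (adjusted p = 8.15e-06). ZBP1 rose from 0.409 and 0.209 CPM under vehicle to 46.8 and 60.2 CPM under AAV (log2 fold change 7.31 ± 0.32 SE, adjusted p = 1.33e-05) and BST2 from 0.204 and 0.313 CPM under vehicle to 67.9 and 92.4 CPM under AAV (log2 fold change 8.14 ± 0.32 SE, adjusted p = 1.07e-05), both with the response element shown above.

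Several of these genes had next to no UMI under vehicle, so that only a bound or a wide interval describes them. RSAD2 had 3 UMIs over the 2 vehicle-injected retinas of week 4 and 2344 over the AAV-injected retinas, a ratio of 1010 per UMI (95% counting interval 345 to 4902), with 87.0 and 339 CPM in the 2 AAV-injected retinas. At week 2 its 6591 UMIs under AAV stood against 1 under vehicle. ISG20, an exonuclease, had 378 UMIs against 0 and was at least 163-fold higher, and OAS1, which makes the second messenger of RNase L, had 112 against 0 and was at least 48.3-fold higher. At the other end were SAMHD1, which rose by 0.89 (adjusted p = 0.00544), GBP5 by 1.49 (adjusted p = 0.0281) and the RNA editor ADAR by 2.09 (adjusted p = 7.4e-05). USP18, which curbs the receptor, rose by 1.75 (adjusted p = 0.00606). Families of close copies, among them the IFIT, GBP and OAS genes and the MX genes, can share reads, so the split within a family is uncertain.

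Interferon-stimulated UMIs were found in most Müller nuclei under AAV. Each nucleus was thinned to 1000 UMIs, and those of the 54 interferon-stimulated genes in the files were counted. Under AAV, 99.8% and 99.7% of the Müller nuclei held at least 1 at week 2, and 99.6% and 99.7% at week 4. Under vehicle the 4 retinas had 33.5% to 37.2%. In rod nuclei at least 1 was held by 77.1% to 89.9% in the AAV-injected retinas and by 21.4% to 24.3% under vehicle. Free RNA can add UMIs to any nucleus, and its part in these shares was not tested. At least 3 such UMIs were held by 97.4% and 99.0% at week 2 and by 92.6% (95% exact binomial interval 91.4 to 93.7) and 97.7% (96.4 to 98.7) at week 4, against 1.69% to 3.11% under vehicle, with intervals and floors here covering counting error only. The median under AAV was 11 and 17 UMIs at week 2 and 7 and 10 at week 4. In the same retinas 31.7% to 52.4% of rod nuclei and 80.3% to 100% of astrocyte nuclei held at least 3, which put rods below, and astrocytes nearer to, the Müller nuclei. In the stricter nuclei of week 4 the shares were 91.5% and 97.3%.

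**Figure D2:**
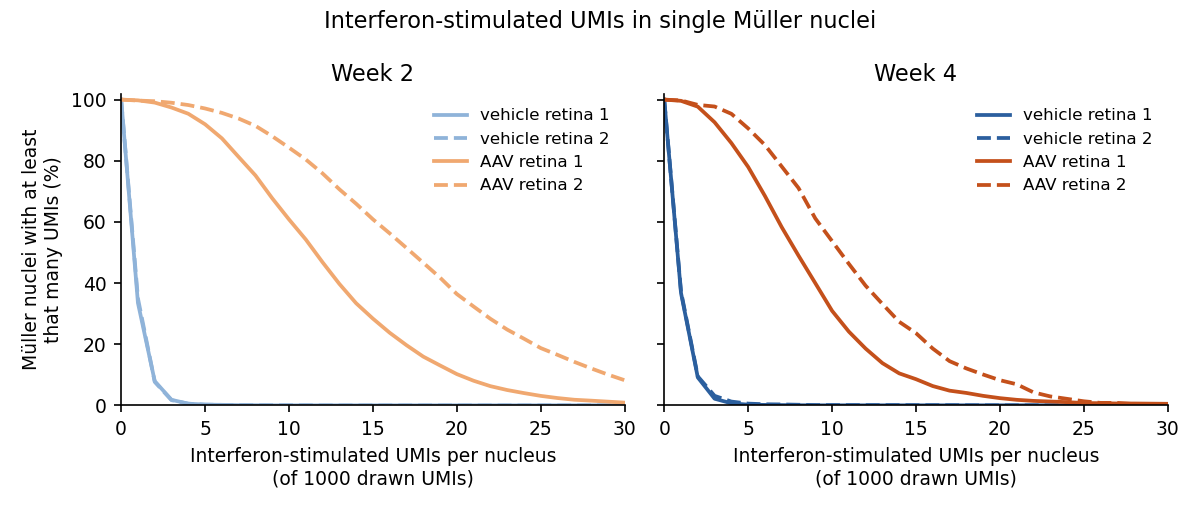
The share of Müller nuclei, in percent, that held at least the number of interferon-stimulated UMIs on the x axis, after 1000 UMIs were drawn from each nucleus, at week 2 (left) and week 4 (right). Solid lines are retina 1 and dashed lines retina 2 of a group; at 3 UMIs the AAV-injected retinas lie between 92.6% and 99.0% and the vehicle-injected retinas between 1.69% and 3.11%.

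Of 19 tested interferon receptors and factors, 13 rose, 6 were not called and none fell, beside 11.9% higher and 11.5% lower of all genes tested. The median log2 fold change was 1.30. STAT2 stood at 25.2 and 30.5 CPM under vehicle and at 154 and 148 CPM under AAV at week 4 (log2 fold change 2.39 ± 0.14 SE, adjusted p = 5.2e-05), and at 209 and 328 CPM under AAV at week 2. IRF9 rose by 2.07 (adjusted p = 0.00026), IRF7 by 4.74 (adjusted p = 0.000225) and IRF1 by 3.90 (adjusted p = 0.000131). The receptor chains rose less, IFNAR1 by 0.83 (adjusted p = 0.00602), IFNAR2 by 1.30 (adjusted p = 0.000527) and IFNGR2 by 1.92 (adjusted p = 0.00051), and the kinases JAK1 and TYK2 stood at log2 fold changes of -0.00 (adjusted p = 1.00) and -0.02 (adjusted p = 0.936). The endosomal RNA sensor TLR3 rose by 3.46 (adjusted p = 0.000918). SOCS1, an inhibitor of the JAK kinases, was at 0 under vehicle and at least 11.2-fold higher. No UMI of IFNB1 was found in the Müller nuclei of any retina.

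MHC class I presentation rose as a group, with 14 of 16 tested genes higher, none lower and a median of 3.00. Of all genes tested, 11.9% were higher and 11.5% lower. B2M, the invariant chain, stood at 2.15 and 4.38 CPM under vehicle and at 98.6 and 104 CPM under AAV at week 4 (log2 fold change 4.90 ± 0.27 SE, adjusted p = 6.34e-05). TAP1, which pumps peptides into the endoplasmic reticulum, went from 2.04 and 2.61 CPM under vehicle to 110.5 and 106 CPM under AAV (log2 fold change 5.49 ± 0.18 SE, adjusted p = 7.37e-06) and NLRC5, the class I transactivator, from 1.43 and 2.71 CPM under vehicle to 190.2 and 186 CPM under AAV (log2 fold change 6.45 ± 0.23 SE, adjusted p = 7.37e-06). In neither did the groups overlap. The immunoproteasome subunit PSMB9 rose by 5.82 (adjusted p = 8.82e-05), PSMB8 had 418 UMIs against 3 (ratio 180, 95% counting interval 61.2 to 877), and the trimming peptidase ERAP1 rose by 3.67 (adjusted p = 0.000754). The general chaperones CANX and PDIA3 had log2 fold changes of -0.24 (adjusted p = 0.159) and -0.01 (adjusted p = 0.956). At week 2, 12 of these genes were over 2-fold higher, with a median of 3.24.

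MHC class II genes were called higher too, 11 of 11 tested with a median of 2.83, beside 11.9% of all genes tested. Most of these class II calls were lost or could not be tested in the stricter nuclei. That choice changes 2 things at once, leukocyte UMIs and RLBP1, so the loss cannot be put down to either. CD74, the invariant chain of class II, stood at 1.94 and 2.82 CPM under vehicle and 20.2 and 33.1 CPM under AAV (log2 fold change 3.401 ± 0.33 SE, adjusted p = 0.000623), and CIITA, the class II transactivator, at 0.307 and 0.626 CPM under vehicle and 15.7 and 22.5 CPM under AAV (log2 fold change 5.24 ± 0.39 SE, adjusted p = 0.000157). In the stricter nuclei only 6 of the genes could be tested and 2 were called, CD74 with a log2 fold change of 2.61 (adjusted p = 0.000748) and the protease CTSL with 2.32 (adjusted p = 0.00224). CTSS had 0.36 (adjusted p = 0.493) there and the costimulator CD80 -1.06 (adjusted p = 0.166), and CIITA had too few UMIs to be tested. At week 2, 4 of 10 class II genes with enough UMIs were over 2-fold higher, and the median was 0.89. Without the second vehicle-injected retina of week 4, 6 class II genes were called.

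Complement, chemokines and NF-kB followed. Of 15 tested complement genes, of 21 that had a row, 12 rose, beside 11.9% of all genes tested. The median log2 fold change was 4.42, or 4.31 with genes at 0 under vehicle set to their bound. Some, such as C1QA (46 UMIs against 0), passed the filter on low counts only through the AAV-injected retinas. For these a rise was the only call possible, so the count and median lean towards a rise. C1S, a protease that starts the classical pathway, rose by 5.12 (adjusted p = 6.78e-05), C4A rose from 2.35 and 2.19 CPM under vehicle to 53.7 and 47.2 CPM under AAV (log2 fold change 4.42 ± 0.19 SE, adjusted p = 1.39e-05), and SERPING1, the C1 inhibitor, rose by 2.52 (adjusted p = 8.46e-05). C1R had 101 UMIs against 1 (ratio 131, 95% counting interval 22.9 to 5208). In the stricter nuclei C1R, C1S, C4A, SERPING1 and CFI were still called of 8 tested, while C3, the hub of the cascade, went from 1.87 (adjusted p = 0.00287) in all Müller nuclei to 0.11 (adjusted p = 0.912), and C1QA, C1QB and C1QC, which macrophages make, could not be tested. At week 2, 9 complement genes were over 2-fold higher.

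Of 15 tested chemokines and cytokines, of 25 that had a row, 11 rose, with a median of 3.46. The share over all genes tested was 11.9%, for these and for the adhesion and NF-kB genes that follow. The limit of the filter given for complement holds here too. CXCL10, which draws T cells, had no UMI under vehicle at either week and was at least 76.3-fold higher at week 4 (177 UMIs against 0) and at least 42.4-fold higher at week 2. At week 4 the stricter nuclei held 19 of these 177 UMIs, against 0 under vehicle, at least 15.5-fold higher. CCL2, which draws monocytes, stood at 0 and 0.417 CPM under vehicle and 25.7 and 16.4 CPM under AAV (log2 fold change 6.56 ± 0.59 SE, adjusted p = 0.000597). CSF1, the growth factor of microglia and macrophages, went from 0.307 and 0.417 CPM under vehicle to 31.4 and 32.2 CPM under AAV (log2 fold change 6.35 ± 0.27 SE, adjusted p = 1.27e-05), and its relative IL34 rose by 1.16 (adjusted p = 0.00303). IL33, an alarmin of Müller glia, and the chemokine CXCL12 had log2 fold changes of 0.03 (adjusted p = 0.925) and -0.51 (adjusted p = 0.358). CXCL10, CCL2, CSF1, CCL5, IL7 and IL34 were called in the stricter nuclei, and the B-cell factor TNFSF13B was not (1.70, adjusted p = 0.133). Of 10 tested adhesion and contact genes, 7 rose: the checkpoint ligands PDCD1LG2 by 5.31 (adjusted p = 0.000491) and CD274 (PD-L1) by 1.02 (adjusted p = 0.00807), ALCAM from 298 and 248 CPM under vehicle to 799 and 860.4 CPM under AAV (log2 fold change 1.56 ± 0.13 SE, adjusted p = 0.000252), CD47 by 0.53 (adjusted p = 0.0109), LGALS3 by 1.61 (adjusted p = 0.00326), and ICAM1 and VCAM1. VCAM1 had 0.59 (adjusted p = 0.388) in the stricter nuclei. Of 22 NF-kB genes 18 rose, with a median of 1.40, among them the feedback inhibitors NFKBIA by 1.14 (adjusted p = 0.0166) and TNFAIP3 (185 UMIs against 3) and the subunit RELB by 2.60 (adjusted p = 0.00163). The subunits RELA and NFKB1 had 0.35 (adjusted p = 0.239) and 0.14 (adjusted p = 0.445). Without the first AAV-injected retina 9 NF-kB genes were called higher, and 11 were called in the stricter nuclei.

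**Figure D3:**
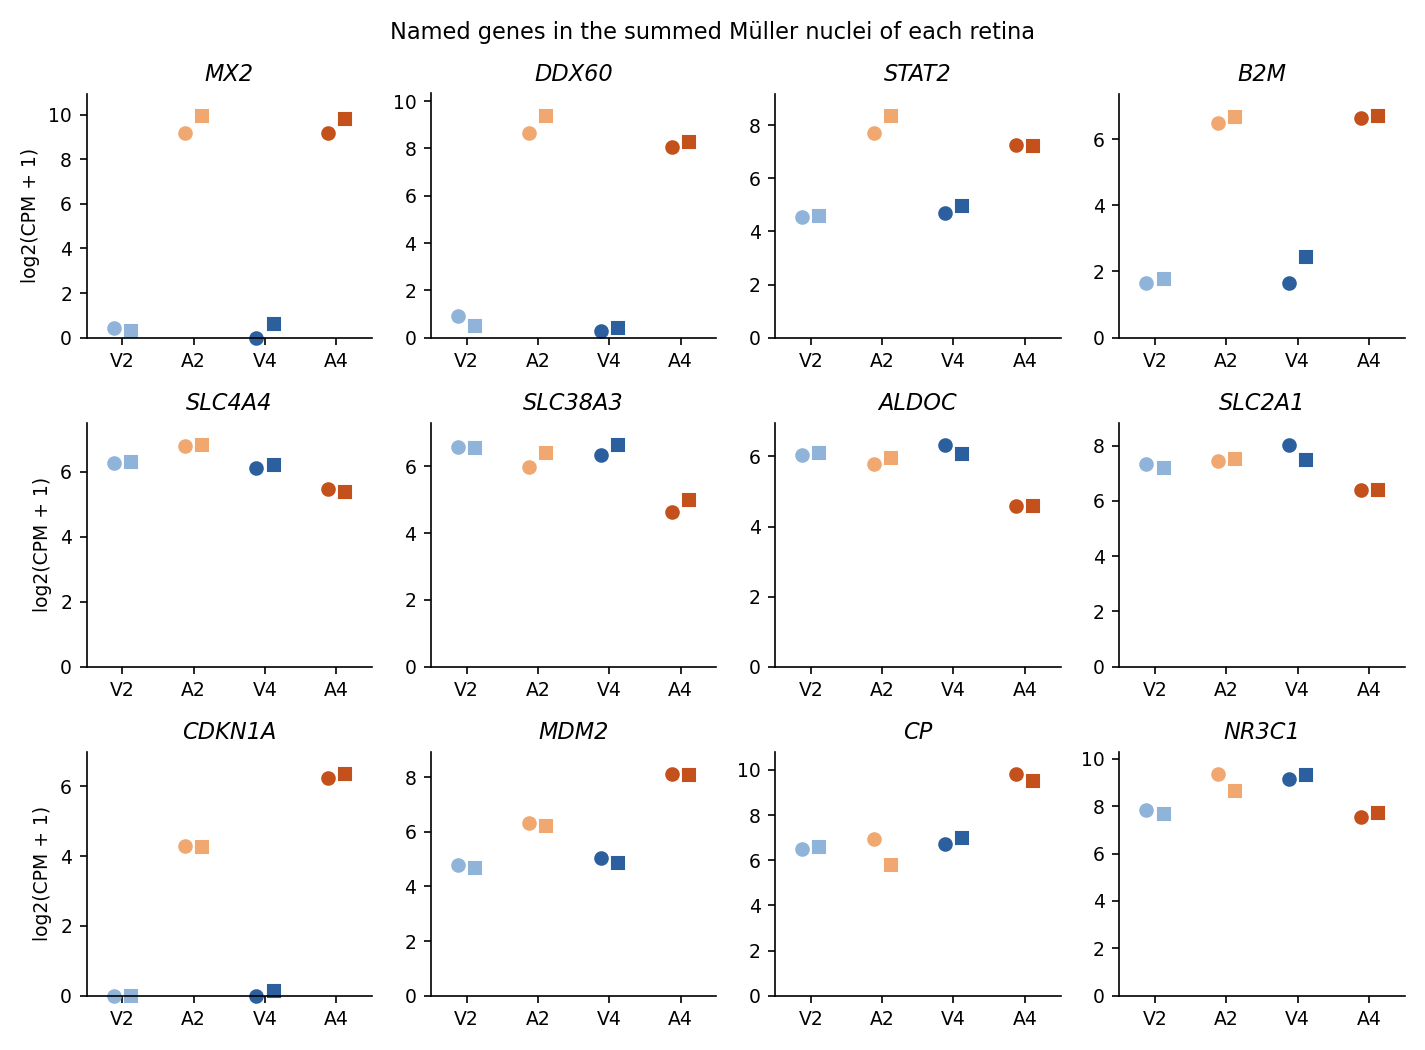
The level of 12 genes in the summed Müller nuclei of each retina, as log2(CPM + 1), for vehicle and AAV at week 2 (V2, A2) and week 4 (V4, A4); the circle is retina 1 and the square retina 2. MX2, DDX60, STAT2 and B2M are high under AAV at both weeks, while SLC4A4, SLC38A3, ALDOC and SLC2A1 have their lowest and CP its highest values under AAV at week 4, and NR3C1 is higher at week 2 and lower at week 4.

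Targets of p53, which respond to DNA damage and other stress, rose in large part. Of 24 tested, 15 were higher and 1, SESN1, was lower (-0.72, adjusted p = 0.0244), with a median log2 fold change of 1.82. Of all genes tested, 11.9% were higher and 11.5% lower. CDKN1A, the p21 inhibitor of the cell cycle, stood at 0 and 0.104 CPM under vehicle and 74.4 and 81.5 CPM under AAV at week 4, with 1144 UMIs against 1 (ratio 1479, 95% counting interval 265 to 58469; adjusted p = 7.37e-06). At week 2 it was at 0 under vehicle and at 18.4 CPM in either eye under AAV, at least 168-fold higher. MDM2, the ligase that limits p53, stood at 32.1 and 27.96 CPM under vehicle and 278 and 268 CPM under AAV at week 4 (log2 fold change 3.14 ± 0.13 SE, adjusted p = 1.07e-05) and at 26.6 and 24.7 CPM under vehicle and 78.0 and 73.9 CPM under AAV at week 2. The death receptor FAS rose by 5.48 (adjusted p = 3.38e-05), the nuclease AEN by 5.71 (adjusted p = 2.32e-05), and the pro-apoptotic BBC3 (PUMA) and BAX by 5.21 (adjusted p = 8.83e-05) and 2.04 (adjusted p = 0.000363). ZMAT3 rose by 3.82 (adjusted p = 2.38e-05). PPM1D, FDXR, DDB2 and SESN2, also targets, had log2 fold changes of -0.41, -0.30, -0.13 and 0.38 and were not called. In the stricter nuclei 14 of 22 were higher.

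CDKN1A was seen in many single Müller nuclei. At week 4, 28.4% (95% exact binomial interval 26.4 to 30.4) and 30.9% (27.6 to 34.3) of the Müller nuclei under AAV held a UMI, and at 1000 drawn UMIs 6.05% and 8.22%. At week 2 the shares were 4.98% and 6.24%, or 1.83% and 1.88% after drawing. Rod nuclei of the same retinas held it in 0.351% and 0.260% at week 4, at medians of 2021 and 2277 UMIs against 5200 and 5388.5, and in 0.171% and 0.0866% after drawing. Astrocyte nuclei had 2.04% and 6.10% after drawing, of 147 and 82 nuclei. Cell death genes rose in 11 of 19, beside 11.9% of all genes tested, with a median of 0.91, both for and against death. The necroptosis effector MLKL rose by 3.26 (adjusted p = 0.00284), CASP8 by 1.86 (adjusted p = 0.00285) and BAK1 by 2.10 (adjusted p = 0.00924). So did the protective BCL2, from 145 and 139.9 CPM under vehicle to 476 and 424 CPM under AAV (log2 fold change 1.62 ± 0.11 SE, adjusted p = 0.000128), and MCL1 by 1.04 (adjusted p = 0.00280). CASP8 had 1.14 (adjusted p = 0.0574) in the stricter nuclei. With equal numbers of nuclei per retina, 5 of these genes were called.

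The transporters that define what Müller glia do for neurons were lower at week 4. Of 18 tested genes of glutamate, potassium, water and pH handling, 12 fell, none rose, and the median log2 fold change was -0.85. Of all genes tested, 11.5% were lower and 11.9% higher. At week 2, CA14 alone was over 2-fold lower, and the median was 0.07. SLC38A3, which exports glutamine to neurons, stood at 80.5 and 98.9 CPM under vehicle and 23.6 and 30.5 CPM under AAV at week 4 (log2 fold change -1.798 ± 0.18 SE, adjusted p = 0.000551), and at week 2 at 93.7 and 92.7 CPM under vehicle and 61.5 and 82.4 CPM under AAV. For this gene the AAV-injected retinas of week 4 lay below all other retinas. The bicarbonate transporter SLC4A4 fell by 0.80 on the log2 scale (adjusted p = 0.00397), the carbonic anhydrases CA14 and CA2 by 1.36 and 0.73, and the glutamate transporter SLC1A2 by 0.44 (adjusted p = 0.0385). AQP4, the water channel of the endfeet, stood at 44.8 and 38.1 CPM under vehicle and 49.9 and 40.6 CPM under AAV and was not called (0.09, adjusted p = 0.713).

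In the stricter nuclei 8 of 17 were lower and none higher, with a median of -0.90; SLC4A4, CA2 and SLC1A2 were no longer called at -0.53 (adjusted p = 0.176), -0.50 (adjusted p = 0.0629) and -0.43 (adjusted p = 0.0516). Over 6 animals 3 were called lower. Without the first or the second AAV-injected retina 7 were. The same genes had medians of -0.98 in rod nuclei and -1.08 in astrocyte nuclei.

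Genes of glucose and lactate metabolism went the same way. Of 14 tested, 8 fell and none rose, beside 11.5% lower and 11.9% higher of all genes tested. The median was -0.90, while at week 2 none was over 2-fold different and the median was 0.15. ALDOC, the glial aldolase, stood at 79.7 and 66.8 CPM under vehicle and 23.1 and 23.0 CPM under AAV (log2 fold change -1.71 ± 0.15 SE, adjusted p = 0.00031). SLC2A1, the glucose transporter GLUT1, stood at 262 and 179 CPM under vehicle and 83.5 and 83.9 CPM under AAV (log2 fold change -1.44 ± 0.18 SE, adjusted p = 0.00220). The AAV-injected retinas of week 4 were the lowest of the 8 in both. HK2 fell by 1.43, GAPDH by 1.36, PDK4 by 1.29, PYGB, which breaks down glycogen, by 1.102, PKM by 0.86 and HK1 by 0.49 on the log2 scale. LDHA (-0.95, adjusted p = 0.393), ENO1 (-0.10, adjusted p = 0.735) and the lactate exporter SLC16A3 (0.64, adjusted p = 0.243) were not called. The fit over 6 animals, which averages the AAV effect over both weeks, called 0 of them, and 7 of 13 were called lower in the stricter nuclei.

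Of 10 tested retinoid genes, beside 11.5% lower of all genes tested, CRABP1 alone was called, lower by 1.78 on the log2 scale (adjusted p = 0.00091). RGR, an opsin that regenerates chromophore in Müller glia and pigment epithelium and that was not on that list, was among the largest decreases of all genes, from 483 and 506 CPM under vehicle to 44.8 and 51.8 CPM under AAV (log2 fold change -3.41 ± 0.13 SE, adjusted p = 8.15e-06), with 499 and 485 CPM under vehicle and 303 and 264 CPM under AAV at week 2. RPE65 (0.13, adjusted p = 0.444) and the retinol dehydrogenases RDH10 (-0.36, adjusted p = 0.161) and RDH11 (-0.32, adjusted p = 0.291) were not called.

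**Figure D4:**
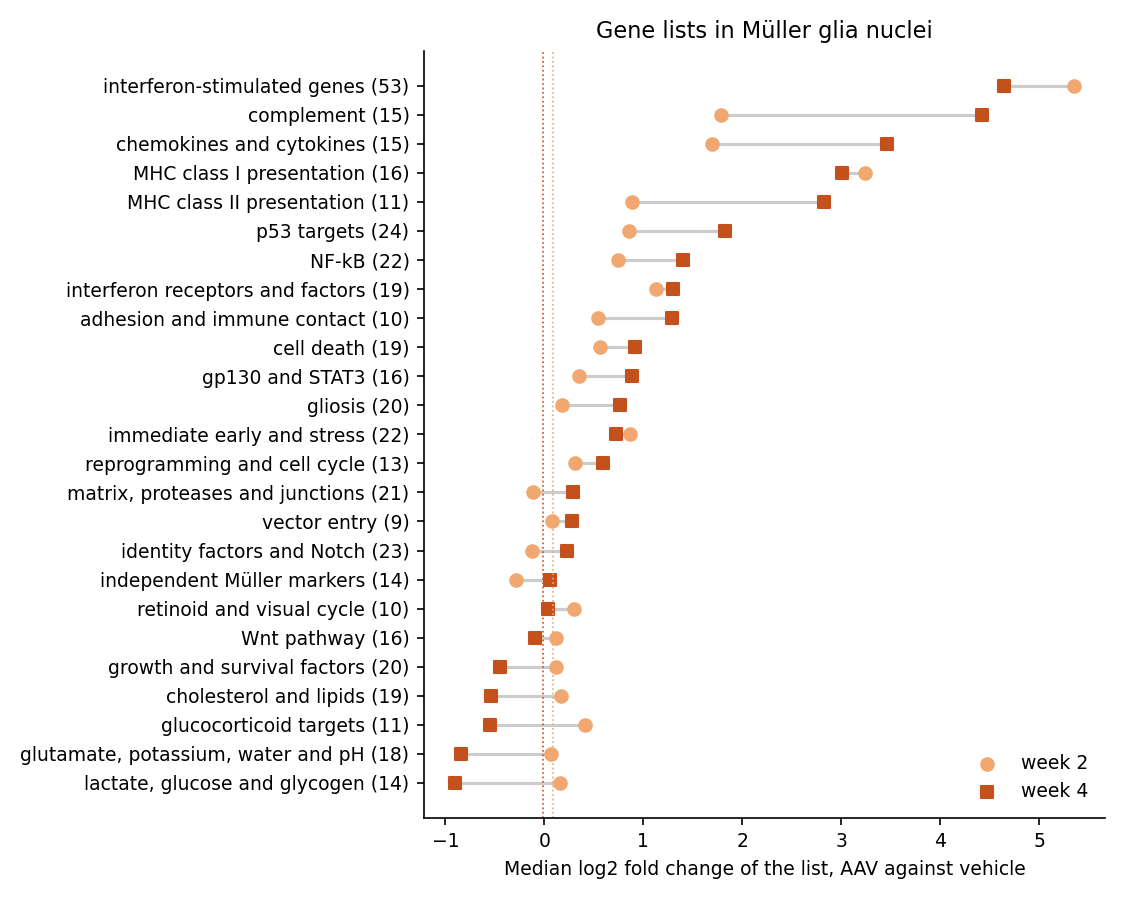
The median log2 fold change, AAV against vehicle, of each gene list in the Müller nuclei at week 2 (circles) and week 4 (squares), with the number of genes tested at week 4 in brackets; dotted lines are the medians of all genes (0.09 and -0.01). Interferon-stimulated genes lie at 5.35 and 4.64, while the glutamate, potassium, water and pH list goes from 0.07 to -0.85 and the lactate, glucose and glycogen list from 0.15 to -0.90.

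Müller identity factors were called in both directions. Of 23 tested, 3 rose and 4 fell, beside 11.9% higher and 11.5% lower of all genes tested, and the median was 0.23. The Notch effector HES1 rose by 1.36 (adjusted p = 0.00444) and the ligand JAG1 by 1.41 (adjusted p = 0.00370), and ID4 rose by 1.24 (adjusted p = 0.0312) but not in the stricter nuclei (0.73, adjusted p = 0.263). SOX8 fell by 1.66 on the log2 scale (adjusted p = 0.000947), PAX6 by 0.77, NFIX by 0.68 and SIX3 by 0.51. LHX2 and SOX2, factors of retinal progenitors that Müller glia keep, had log2 fold changes of 0.01 (adjusted p = 0.965) and 0.58 (adjusted p = 0.0543). Of 13 tested genes of reprogramming and the cell cycle, the inhibitors CDKN2A (22 UMIs against 3) and CDKN2B, by 1.94 (adjusted p = 0.00143), were called higher, beside 11.9% of all genes tested.

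Gliosis genes rose in 8 of 20 tested and fell in 1, with a median of 0.77, beside 11.9% higher and 11.5% lower of all genes tested. GFAP, the classic filament of reactive glia, varied within the groups, at 50.8 and 133 CPM under vehicle and 389.8 and 273 CPM under AAV, and was not called (log2 fold change 1.805 ± 0.52 SE, adjusted p = 0.0831). NES, another filament, rose by 2.86 (adjusted p = 0.00793), VIM by 0.60 (adjusted p = 0.0331), and the annexins ANXA2 and ANXA1 by 3.76 (adjusted p = 9.47e-05) and 2.66 (adjusted p = 0.000254). CD44, the hyaluronan receptor, went from 119 and 119 CPM under vehicle to 390.4 and 379 CPM under AAV (log2 fold change 1.65 ± 0.11 SE, adjusted p = 8.82e-05). CP, the ferroxidase ceruloplasmin, stood at 104 and 127 CPM under vehicle and 909.7 and 729.5 CPM under AAV (log2 fold change 2.78 ± 0.16 SE, adjusted p = 5.6e-05), against 90.1 and 94.9 CPM under vehicle and 123 and 55.0 CPM under AAV at week 2. TF, the iron carrier transferrin, fell from 1357 and 1237 CPM under vehicle to 450.3 and 252 CPM under AAV (log2 fold change -1.93 ± 0.27 SE, adjusted p = 0.00663). The signal that often drives gliosis, through gp130 and STAT3, had 8 of 16 genes higher and none lower, beside the same shares of all genes. STAT3 stood at 80.5 and 79.6 CPM under vehicle and 188 and 174 CPM under AAV (log2 fold change 1.13 ± 0.11 SE, adjusted p = 0.000532), IL6R rose by 1.65 (adjusted p = 0.000739), OSMR by 1.07 (adjusted p = 0.0199) and BCL3 by 3.61 (adjusted p = 0.000902). SOCS3, their feedback inhibitor, had 46 UMIs against 0, at least 19.8-fold higher, and LIF 28 against 1 (ratio 36.2, 95% counting interval 5.98 to 1480). The stricter nuclei held 13 UMIs of SOCS3 against 0, at least 10.6-fold higher, and 6 of LIF against 1 (ratio 14.7, 95% counting interval 1.79 to 677). Without the first AAV-injected retina 5 of the gliosis and 5 of the gp130 genes were called higher.

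The factors that Müller glia secrete changed in both directions. Of 20 tested, 6 rose and 4 fell, beside 11.9% higher and 11.5% lower of all genes tested. IGFBP5, which binds insulin-like growth factors, stood at 97.0 and 90.04 CPM under vehicle and 10.6 and 6.53 CPM under AAV at week 4 (log2 fold change -3.41 ± 0.21 SE, adjusted p = 6.9e-05), but at 99.2 and 81.4 CPM under vehicle and 99.4 and 85.4 CPM under AAV at week 2. FGF9 fell by 2.01 on the log2 scale (adjusted p = 0.00715), VEGFA, which feeds vessels and neurons, by 1.18 (adjusted p = 0.0209) and the prostaglandin synthase PTGDS by 0.69 (adjusted p = 0.00453). FGF2 rose by 1.35 (adjusted p = 0.00915), FGF1 by 0.73 (adjusted p = 0.00833), NTF3 by 2.11 (adjusted p = 0.000247) and BDNF by 1.44 (adjusted p = 0.0122). Of 16 Wnt genes 2 rose and 4 fell, beside 11.9% higher and 11.5% lower of all genes tested: the receptor FZD5 rose by 0.85 (adjusted p = 0.0147) and CTNNB1 by 0.49 (adjusted p = 0.0347), while the co-receptor LRP5 fell by 1.28 and the secreted inhibitors FRZB, SFRP1 and SFRP2 fell by 1.23, 1.06 and 0.87. Only 3 of the secreted factors were called higher at 1000 drawn UMIs and 3 over 6 animals.

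All animals received a glucocorticoid, and its receptor differed between the weeks. NR3C1 stood at 560.0 and 643 CPM under vehicle and 187 and 211 CPM under AAV at week 4 (log2 fold change -1.65 ± 0.13 SE, adjusted p = 0.000197), but at 227 and 203 CPM under vehicle and 663 and 399.7 CPM under AAV at week 2, where both eyes of the AAV-injected animal were higher. The difference between the weeks was -2.76 ± 0.22 SE, adjusted p = 0.00250. With 1 animal per group at week 2, it can also be a difference of the animals, which the p-value does not cover. NR3C1 also differed between the weeks in the vehicle-injected retinas alone. Its targets FKBP5, PER1 and ZBTB16 fell by 0.75, 1.11 and 0.88 at week 4, and TFCP2L1 rose by 2.45 (adjusted p = 0.0428). TSC22D3 (-0.54, adjusted p = 0.528), KLF9 (-0.03, adjusted p = 0.869) and SGK1 (1.06, adjusted p = 0.258) were not called. Of the 11 genes tested, NR3C1 itself among them, 4 fell and 1 rose, beside 11.5% lower and 11.9% higher of all genes tested. Cholesterol and lipid genes fell in 9 of 19 and rose in 1, beside 11.5% lower and 11.9% higher of all genes tested. INSIG1, the sensor that holds back sterol synthesis, fell by 1.75 on the log2 scale (adjusted p = 0.000737), SQLE by 1.35, SREBF2 by 0.88 and the lipase LPL by 1.95. ABCA1, which exports cholesterol, rose from 27.2 and 28.2 CPM under vehicle to 179.9 and 219 CPM under AAV (log2 fold change 2.80 ± 0.14 SE, adjusted p = 2.92e-05). Over 6 animals 1 lipid gene was called lower, and 5 were without the second vehicle-injected retina.

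By size, the decreases at week 4 named by rule (at least 20 CPM, no overlap, the 12 largest) were led by genes with no place on these lists. AK5, an adenylate kinase of brain, stood at 132 and 139 CPM under vehicle and 5.99 and 4.84 CPM under AAV (log2 fold change -4.64 ± 0.16 SE, adjusted p = 7.37e-06), and GLP2R, a peptide hormone receptor, at 41.2 and 29.1 CPM under vehicle and 1.20 and 1.21 CPM under AAV (log2 fold change -4.90 ± 0.29 SE, adjusted p = 6.34e-05). PDE10A, a cyclic nucleotide phosphodiesterase and by far the most abundant of them, went from 7384 and 10299 CPM under vehicle to 901 and 613 CPM under AAV (log2 fold change -3.59 ± 0.25 SE, adjusted p = 0.000361), and the thyroid hormone transporter SLCO1C1 from 394 and 279 CPM under vehicle to 34.4 and 26.4 CPM under AAV (log2 fold change -3.49 ± 0.21 SE, adjusted p = 0.00012). The natriuretic peptide receptor NPR3, USP43 and ATOH8 fell by 3.66, 3.75 and 3.66 on the log2 scale. The mitochondrially encoded CYTB, COX3 and ND2 fell by 3.31, 3.27 and 3.23, beside the lower mitochondrial share given above. Their values include nuclei with a high mitochondrial share, of which the vehicle-injected retinas held more. They are thus not to be read as lower expression in Müller glia. Of the 12 largest increases, MX2, ISG20, RSAD2, DDX60, SAMD9, BST2 and ZBP1 belong to the interferon-stimulated genes and ERAP2 and PSMB8 to class I presentation, and the others are TRIM34, CDKN1A and CD163.

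The AAV effect was compared between the weeks by a test of the difference over the 6 animals, with the 2 eyes of a week 2 animal summed. Of 19482 genes tested, 179 (0.919%) had a larger log2 effect at week 4 than at week 2 and 332 (1.7%) a smaller one, 2.62% in all. Larger and smaller refer here and below to the signed log2 effect, so a deeper decrease counts as smaller. Each group of week 2 held 1 animal. A difference between the weeks can thus also be that of these animals, which the p-values do not cover. The spread rests on the week 4 animals alone, and without the first or the second AAV-injected animal of week 4 the counts were 27 and 63 or 23 and 73. Among the interferon-stimulated genes, IFIT2 (-2.51, adjusted p = 0.0220), ZC3HAV1 (-1.54, adjusted p = 0.0351) and EPSTI1 (-2.78, adjusted p = 0.0135) had a smaller effect at week 4 and none a larger one. Among the glutamate, potassium, water and pH list, SLC6A13 (-2.61, adjusted p = 0.0433), SLC38A3 (-1.40, adjusted p = 0.0420), SLC4A4 (-1.27, adjusted p = 0.0237) and DTNA (-0.98, adjusted p = 0.0428) had a lower log2 effect at week 4 than at week 2, as had ALDOC (-1.45, adjusted p = 0.0235), SLC2A1 (-1.58, adjusted p = 0.0442), GAPDH (-1.43, adjusted p = 0.0198) and PDK4 (-1.24, adjusted p = 0.0376). At week 2 both eyes under AAV were below both under vehicle for SLC38A3 and ALDOC and above them for SLC4A4, DTNA, SLC2A1 and GAPDH, and the eyes overlapped for SLC6A13 and PDK4. Of the p53 targets, MDM2 (1.67, adjusted p = 0.0139), ZMAT3 (2.07, adjusted p = 0.0191) and RRM2B (1.48, adjusted p = 0.0234) had a larger effect at week 4. So had CP (3.08, adjusted p = 0.00338), for which the eyes of week 2 overlapped, PDLIM1 (3.91, adjusted p = 0.00250), an actin-linked protein that went from 8.60 and 6.98 CPM under AAV at week 2 to 72.9 and 83.2 CPM at week 4, and the transcription factor CEBPD (3.93, adjusted p = 0.0243), which went from 1.24 and 1.61 to 31.7 and 20.6 CPM.

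The same retinas allowed a test of whether the week 4 effect in Müller nuclei differed from that in rod nuclei (9415 to 26546 per retina), with the retina as a block. Of 20653 genes, 882 (4.27%) had a larger log2 effect in Müller nuclei and 1443 (6.99%) a smaller one, with a median difference of -0.09, and DESeq2 called 892 and 943. The balance turned in the stricter nuclei, with 1176 larger, 1074 smaller and a median difference of 0.03. The interferon-stimulated genes had a median difference of 0.42, with 14 larger and 11 smaller. Among the latter was IFI44 (-4.31, adjusted p = 0.000496). It stood at 12.9 and 9.29 CPM under vehicle and 302 and 286 CPM under AAV in Müller nuclei, but at 0.564 and 0.698 CPM under vehicle and 239 and 323 CPM under AAV in rods, so the larger gap between the classes was in the vehicle level. Of the p53 targets 9 had a larger effect in Müller nuclei and 2 a smaller one, AEN by 5.09 (adjusted p = 0.000311), and of the complement genes 4 had a larger one, C4A by 3.90 (adjusted p = 0.000569). TYMS, which makes thymidylate, rose from 2.56 and 1.36 CPM under vehicle to 37.6 and 36.04 CPM under AAV in Müller nuclei and stood at 10.2 and 7.03 CPM under vehicle and 6.40 and 5.94 CPM under AAV in rods (difference 4.50 ± 0.25 SE, adjusted p = 0.000112). CP had a larger effect too (2.10, adjusted p = 0.00125). RGR fell less in Müller nuclei than in rod nuclei (1.49, adjusted p = 0.00412), where its level was 25.9 and 25.8 CPM under vehicle and 0.898 and 0.632 CPM under AAV. Free RNA of other cells can add to a level this low, and its part in the rod values was not tested.

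Against the astrocytes of the retina, which numbered 82 to 147 nuclei per retina at week 4, 180 of 15081 genes (1.19%) had a larger effect in Müller nuclei and 289 (1.92%) a smaller one. A larger effect was found for the interferon-stimulated TRIM25 (1.76, adjusted p = 0.0189), EIF2AK2 (0.90, adjusted p = 0.0424), IFI44 (1.74, adjusted p = 0.0239), HERC6 (2.05, adjusted p = 0.00303) and HERC5 (2.49, adjusted p = 0.000952), and CSF1 (4.25, adjusted p = 0.00648). CP rose less in Müller nuclei than in astrocytes (-1.50, adjusted p = 0.00396). FLT1, at 716 and 844 CPM under vehicle and 314 and 295 CPM under AAV in Müller nuclei, stood at 0 and 0 CPM and 13.7 and 5.29 CPM in astrocytes.

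With leukocyte RNA left out by the stricter choice of nuclei, 15441 genes could be tested and 1510 rose and 1550 fell, 2704 of them shared with all Müller nuclei. Of 51 testable interferon-stimulated genes 48 rose, with a median of 4.54, and of 22 p53 targets 14. The calls that were lost included genes that leukocytes use. Why they were lost was not tested. BANK1, a B-cell adaptor, had 4.90 (adjusted p = 0.000399) in all Müller nuclei and 1.38 (adjusted p = 0.0833) in the stricter nuclei, BLNK, another, 3.19 (adjusted p = 0.00172) and 0.79 (adjusted p = 0.312), KYNU 2.29 (adjusted p = 0.0210) and -1.11 (adjusted p = 0.151), and ARHGAP15 2.38 (adjusted p = 0.0124) and -0.35 (adjusted p = 0.417). CD163, MRC1, IGHM, CD2 and IL7R could not be tested there. The stricter choice also leaves out nuclei without an RLBP1 UMI, which were a larger share under AAV. It counts leukocyte UMIs without thinning, so it drops deeper nuclei more readily. The nuclei it keeps are thus not a random sample.

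**Figure D5:**
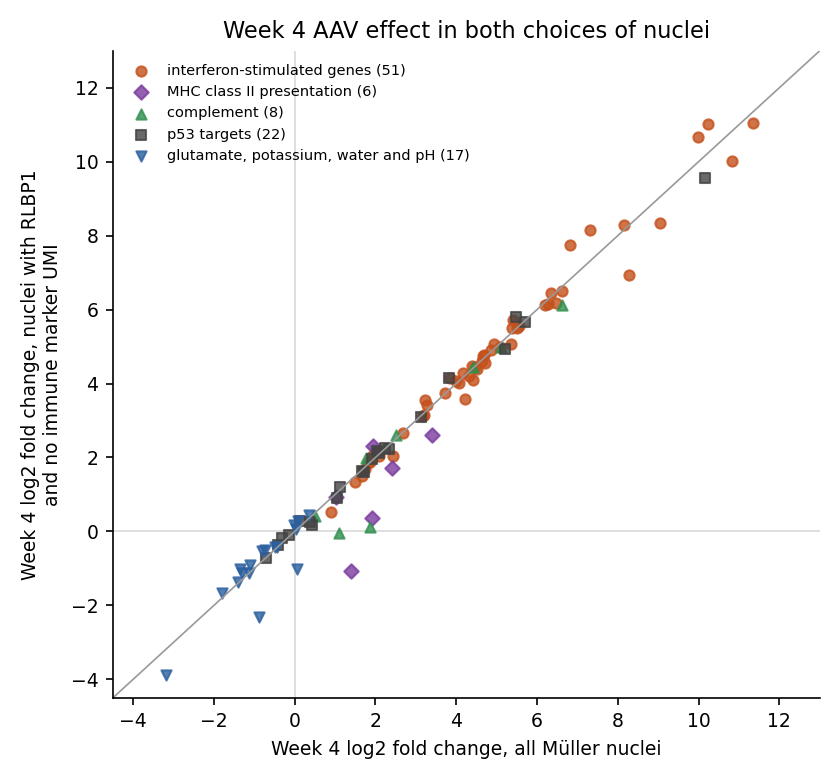
The week 4 log2 fold change, AAV against vehicle, of genes in all Müller nuclei (x axis) and in nuclei with RLBP1 and without any of 19 leukocyte genes (y axis), for the genes of 5 lists that could be tested in both, with their number in brackets; the grey diagonal marks equal values. Most interferon-stimulated genes and p53 targets lie near the diagonal, while C3 drops from 1.87 to 0.11 and CTSS from 1.92 to 0.36.

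The transgene was counted as EGFP. Of the Müller nuclei, 7.63% and 13.4% held an EGFP UMI in the eyes of the AAV-injected animal at week 2, and 8.30% (95% exact binomial interval 7.13 to 9.60) and 5.57% (4.04 to 7.46) in the AAV-injected retinas at week 4. No nucleus did in the vehicle-injected retinas, where a count of 0 among 3637 to 5002 nuclei allows a share of up to 0.0600% to 0.0825%, taken as 3 nuclei of the total. At 1000 drawn UMIs the shares were 3.09% and 4.47% at week 2 and 2.20% and 1.06% at week 4. Lymphocyte nuclei of the week 4 AAV-injected retinas, which should lack the transgene, held EGFP in 1.27% and 1.45% after drawing, at medians of 1947.5 and 1975 UMIs before it, and rod nuclei in 2.55% and 1.96%. The exact intervals of the Müller nuclei (1.60 to 2.94 and 0.459 to 2.08) and the lymphocytes (0.413 to 2.94 and 0.534 to 3.13) overlapped in both retinas, so the EGFP share of Müller nuclei at week 4 was not told apart from that in lymphocytes. Nuclei with an EGFP UMI had a median of 12 and 18 interferon-stimulated UMIs at week 2 and 8 and 12 at week 4, against 11 and 17, and 7 and 10, in nuclei without one. Higher interferon-stimulated RNA was thus measured in nuclei with and without detected transgene RNA.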

How the data were processed

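Nuclear RNA of 8 retinas (4 lanes each) was analysed. Per the labels, the submitters aligned reads to Sscrofa11.1 and called cells with Cell Ranger 8.0.0, and the deposited values are raw UMI counts per gene and barcode, not normalized. No sample was left out, and the file of each lane gave the retina of its barcodes. Doublets were not removed by a caller; the limit of 2 UMIs of other cell types stood in for one. Müller nuclei, gene lists and named genes were chosen with earlier results of these data known.

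Counts were summed per retina over the Müller nuclei. Genes were kept with filterByExpr, scaled by TMM and tested with edgeR 4.0.16 (robust quasi-likelihood F-test, R 4.3.3), AAV against vehicle over the 4 retinas of week 4, with Benjamini-Hochberg adjustment over all tested genes and a threshold of 0.05. Standard errors were taken from the fold change and its F statistic and are approximate. With 2 animals per group, p-values measure only the spread between these animals. The 13 genes of the definition were not tested. A gene with next to no UMI under vehicle passed the filter only through the AAV-injected retinas, so in any list only a rise could be called for it. Week 2 holds 1 animal per group and was described by a fold over 2 with no overlap of the eyes. The effect was compared between weeks over 6 animals and between cell classes with the retina as a block. Named genes were the 12 largest changes each way at week 4 among genes with at least 20 CPM and no overlap, up to 4 genes per list with set markers, and the 6 largest differences each way between weeks and between classes; further list members are named to describe their list. Alternatives were DESeq2 1.42.0, limma-voom 3.58.1, other size factors, no filter, thinning to 1000 UMIs, other definitions of the nuclei, equal numbers of nuclei and each retina left out.

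Depth per retina was 4134331 to 18619823 UMIs in the Müller nuclei. On simulated counts with 200 changed genes, the week 4 fit (17197 genes) recovered 55% of 2-fold and 92% of 4-fold changes, with 11.4% of its calls on unchanged genes, and the fit between weeks (18770 genes) 13%, 75% and 24.8%. Some genes are not reported here. Of the list symbols, 54 had no row and were not analysed here. Intervals for shares are exact (Clopper-Pearson, 95%) and those for ratios are exact Poisson intervals; the floor for a count of 0 is 3 UMIs over a group.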

Additional observations from a re-analysis of the deposited data

Results flagged for a closer look

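The AAV effect on 35 results differed by a test of the difference itself (edgeR's interaction terms, Benjamini-Hochberg adjusted), from the 6 largest each way per comparison. No cause was tested. Those between the weeks rest on 1 animal per group at week 2, and the test does not cover a difference between these animals. Larger and smaller again refer to the signed log2 effect, so a deeper decrease, as for AK5 and GLP2R, counts as smaller. Between the weeks, the effect in Müller nuclei was larger at week 4, on the log2 scale, for CEBPD (3.93), PDLIM1 (3.91), TCEA3 (3.90), CRYGS (3.49), BANK1 (3.41) and CP (3.08), and smaller for ATOH8 (-5.04), AK5 (-3.99), BAMBI (-3.86), GLP2R (-3.63) and RANBP3L (-3.46). RANBP3L stood at 44.1 and 62.9 CPM under AAV at week 2 against 8.34 and 5.67 CPM under vehicle, and at 9.04 and 8.71 CPM against 9.41 and 16.2 CPM at week 4. BAMBI, a decoy receptor of TGF-beta signalling, stood at 3.504 and 3.63 CPM under AAV at week 4 and 29.3 and 32.0 CPM under vehicle. In nuclei with RLBP1 and no leukocyte UMI the difference for BANK1 was 0.40 (adjusted p = 0.81). Leaving out an AAV-injected animal of week 4 took the calls between weeks from 179 larger and 332 smaller to 27 and 63 or to 23 and 73.

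Between Müller and rod nuclei at week 4, the effect was larger in Müller nuclei for PDLIM1 (5.41), AEN (5.09), TYMS (4.50), C4A (3.90), SAMD4A (3.87) and COL4A4 (3.86), and smaller for RASGRP3 (-5.45), GLP2R (-5.18), GPT2 (-4.62), IFI44 (-4.31), AK5 (-4.07) and ATP8B4 (-3.90). GPT2, an alanine transaminase, fell in Müller nuclei (log2 fold change -1.50 ± 0.12 SE, adjusted p = 0.00025) and had a log2 fold change of 3.01 in rods, and RASGRP3 likewise (log2 fold change -2.56 ± 0.30 SE, adjusted p = 0.00195) against 2.76. ATP8B4 was not called in Müller nuclei (-1.32, adjusted p = 0.249), where the retinas under vehicle differed, at 80.5 and 26.5 CPM.

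Between Müller and astrocyte nuclei at week 4, the effect was larger in Müller nuclei for KYNU (5.23), BLNK (4.79), ARHGAP15 (4.48), TBXAS1 (4.43), CSF1 (4.25) and GRIN2A (4.20), and smaller for FLT1 (-10.00), ANO1 (-9.36), USP43 (-5.52), COL22A1 (-5.15), NPR3 (-4.64) and CPAMD8 (-3.77). KYNU, BLNK and ARHGAP15 are used by leukocytes, and in nuclei with RLBP1 and no leukocyte UMI their week 4 log2 fold changes were -1.11 (adjusted p = 0.151), 0.79 (adjusted p = 0.312) and -0.35 (adjusted p = 0.417). In astrocytes under vehicle neither FLT1 nor ANO1 had a UMI, so the size of both differences depends on the prior count and is no bound. FLT1 stood at 0 and 0 CPM under vehicle and 13.7 and 5.29 CPM under AAV in astrocytes, and ANO1 at 0 and 0 CPM and 14.4 and 5.29 CPM, against 204 and 252 CPM and 166 and 117 CPM in Müller nuclei.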

How the results depend on the processing

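The share of Müller nuclei kept its direction and lack of overlap in the 5 other definitions, with differences of -3.85 to -6.37 percentage points. These definitions count nuclei by the same marker genes, and 1 requires RLBP1. The kept direction is thus no separate support for a lower share. For all genes at week 4, thinning to 1000 UMIs gave 1346 higher and 1230 lower, equal numbers of nuclei (754 per retina) 1259 and 1283, the fit over 6 animals 752 and 391, and DESeq2 1347 lower; leaving out 1 retina gave 1297 to 1370 higher and 1124 to 1409 lower. Between weeks, no filter on low counts gave 668 larger and 982 smaller, nuclei with RLBP1 and no leukocyte UMI (chosen, like the alternatives on RLBP1 or leukocyte UMIs alone, after the data were seen) 275 and 538, and leaving out 1 week 4 animal 23 to 229 and 63 to 433. Against rods DESeq2 gave 943 smaller, and nuclei with RLBP1 and no leukocyte UMI 1176 larger and 1074 smaller. Against astrocytes thinning gave 73 larger and 146 smaller and DESeq2 91 and 114.

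The interferon-stimulated, interferon receptor, MHC class I, adhesion and p53 lists kept counts within 1.5 times of the main count in every alternative run, leaving-one-out ranges being 49 to 53, 10 to 13, 12 to 13, 6 to 7 and 13 to 16. Over 6 animals, with 1 AAV effect shared by both weeks, the members called were 3 (glutamate, potassium, water and pH), 0 (lactate and glucose), 3 (gliosis), 3 (growth factors), 6 (MHC class II), 7 (chemokines), 7 (stress) and 1 (lipids, lower). Equal numbers of nuclei gave 5 (gp130), 6 (MHC class II), 9 (NF-kB) and 5 (cell death), and thinning 3 (growth factors), 7 (chemokines) and 7 (stress). Without leukocyte UMIs there were 5 (MHC class II), 6 (complement) and 6 (chemokines), with RLBP1 6, 6 and 7, and with both 2, 5 and 6, beside 5 (gp130) and 11 (NF-kB). At 6 marker UMIs complement had 7. Leaving out 1 retina gave 7 to 10 (glutamate, potassium, water and pH), 5 to 8 (lactate and glucose), 5 to 9 (gliosis), 5 to 7 (gp130), 6 to 10 (MHC class II), 9 to 14 (NF-kB), 7 to 12 (stress) and 5 to 7 (lipids). The cause of these changes was not tested. The share of nuclei with at least 3 interferon-stimulated UMIs at week 4 had a mean of 95.2% thinned and 99.97% unthinned, and the EGFP share one of 6.94%, 1.63% after thinning and 0.866% at 2 UMIs.

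Of 3172 values of called named genes under alternatives, 2850 kept direction and call, 318 lost the call and 4 changed sign: KYNU (-0.96 without leukocyte UMIs, -1.11 with RLBP1 as well) and ARHGAP15 (-0.48 and -0.35). LHX2, not called, was -0.039, -0.025, -0.019, -0.069 and -0.020 with 3 marker UMIs, the rule after thinning, equal numbers, 6 animals and no leukocyte UMI, and -0.16 to 0.21 without a retina; AQP4, not called, was -0.0054 with the rule after thinning and -0.060 to 0.22 without a retina. No paired analysis was possible because the labels give no replicate numbers that groups share. Genes under the filter on low counts were not testable.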

Other observations

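Immediate early and stress genes of the Müller nuclei changed in part at week 4, with 11 of 22 tested higher, 1 lower and a median log2 fold change of 0.73. Of all genes tested, 11.9% were higher and 11.5% lower. The AP-1 members JUN, FOS and JUNB rose by 1.93 (adjusted p = 0.00414), 2.36 (adjusted p = 0.0308) and 2.33 (adjusted p = 0.00185), and the stress factors ATF3 and MYC by 4.86 (adjusted p = 0.0001) and 4.18 (adjusted p = 0.00240). The heat shock genes HSPH1 (-0.04, adjusted p = 0.914) and DNAJB1 (-0.05, adjusted p = 0.928) were not called, and HSP90AA1 fell by 0.49 on the log2 scale (adjusted p = 0.0265). Of the endoplasmic reticulum stress genes, ATF4 rose by 0.69 (adjusted p = 0.0275), while DDIT3 (-0.02, adjusted p = 0.961) and XBP1 (0.35, adjusted p = 0.304) were not called. At 1000 drawn UMIs, 7 of these genes were called higher, and also 7 without the first or the second AAV-injected retina.

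Of 21 tested matrix and junction genes, 3 were higher and 1 lower, beside 11.9% higher and 11.5% lower of all genes tested. COL9A1, a collagen chain, stood at 1351 and 1117 CPM under vehicle and 2804 and 2241 CPM under AAV at week 4 (log2 fold change 0.99 ± 0.15 SE, adjusted p = 0.00347), the basement membrane laminin LAMB2 rose by 0.86 (adjusted p = 0.0100) and N-cadherin (CDH2) by 0.46 (adjusted p = 0.0176). The protease ADAMTS9 fell by 2.14 (adjusted p = 0.00913). The polarity gene CRB1 (0.05, adjusted p = 0.816) and the junction gene TJP1 (0.29, adjusted p = 0.124) were not called. Among 9 genes of AAV entry, the AAV receptor KIAA0319L rose by 0.51 (adjusted p = 0.0143) and the co-receptor FGFR1 by 0.57 (adjusted p = 0.00972), the integrin ITGB5 fell by 0.98 (adjusted p = 0.00125), and GPR108, TM9SF2, RPSA, HSPG2, MET and ITGA5 were not called. Over all genes tested 11.9% were higher and 11.5% lower.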
